A study of Mus musculus with 16 samples.

Results

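Lungs of mice that received bleomycin together with Ad-GFP, an adenovirus carrying green fluorescent protein, were compared with control lungs. The comparison used 8 of the 16 libraries of the study, chosen by their labels: the 4 labelled Control and the 4 labelled Bleomycin, Ad-GFP. Each group had 2 libraries in each of 2 batches, and a library is written here by batch and replicate, so that b1r2 is batch 1, replicate 2. Control lungs carried no agent that the labels name, and the Ad-GFP lungs carried bleomycin and the vector. A further 4 libraries from lungs given bleomycin alone, again 2 per batch, served to compare bleomycin with and without the vector. The fourth group of the study received bleomycin with an adenovirus named for ATP12A, the catalytic subunit of a non-gastric proton pump, and its libraries entered only an alternative fit. The labels give no strain, genotype, sex, age, dose, route or day of collection. They name no vehicle or vector for the control lungs, so bleomycin and vector cannot be told apart in the comparison with control. They also name neither the promoter that drives GFP nor the cells the vector reached. The labels do not state that replicates are separate animals. In batch 1 of both groups, replicate 1 held Xist, the RNA that coats the silenced X chromosome, and almost no Ddx3y, a Y-linked gene, and replicate 2 the reverse (117.65 and 0.01 TPM against 0.14 and 44.65 TPM in control, 167.38 and 0 TPM against 0.24 and 28.05 TPM with Ad-GFP), so those replicates came from different animals. For the replicates of batch 2 neither label nor these genes tell, and p-values measure the spread between the libraries. Where lungs are counted below, libraries are meant.

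Bleomycin breaks DNA, and in the mouse lung it injures the epithelium and draws in inflammatory cells. Macrophages that derive from blood monocytes gather in the injured areas, fibroblasts lay down collagen and elastic fibres, and a scar forms that models pulmonary fibrosis. An adenovirus that carries only GFP is the usual control for one that carries a gene of interest, and adenoviral particles are known to be sensed by the innate immune system and to raise antibodies.

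RNA came from mouse lung, and expression was given in TPM, a level that is corrected for the length of a transcript and for the total of its library. In bulk tissue, fewer cells of a type and less RNA per cell cannot be told apart. All values of 4 libraries below are in the order b1r1, b1r2, b2r1 and b2r2. Each of the 8 libraries had between 15721 and 16336 genes at 1 TPM or more, and mitochondrial transcripts made up between 5.92% and 11.5% of the total. Sftpc, the surfactant protein that marks alveolar type 2 cells, lay between 4644 and 29397 TPM, which matches the labelled tissue. The depth of the libraries is unknown, since TPM does not keep it. Control libraries correlated with each other at r of 0.9677 or more across genes, and Ad-GFP libraries at 0.928 or more. The lowest value was between Ad-GFP b1r1 and b2r2. Scgb1a1, which club cells secrete in large amounts, stood at 441 TPM in control b2r1 and 295 TPM in Ad-GFP b1r1, while the other 6 libraries held between 24870 and 122337 TPM. Xist reached 118 TPM in control b1r1 and 167 TPM in Ad-GFP b1r1 and stayed under 1 TPM in the other 6. Each of those imbalances touched 1 library per group, and counts without them are given below. Atp12a, named in the study's title, was listed at 0 to 0.08 TPM in the 8 libraries and was not tested. Transcripts of the vector itself were not analysed here.

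Of 16055 genes tested, 1018 differed between Ad-GFP and control lungs (6.34%), with 695 higher (4.33%) and 323 lower (2.01%) in Ad-GFP lungs. Genes were tested by limma on log2(TPM + 1) with batch as a term, and a gene was called at a Benjamini-Hochberg adjusted p under 0.05. Fold changes below are log2 differences, Ad-GFP minus control, on that scale, which understates the change of low genes. Higher genes made up 68.3% of the calls, but 58% after quantile normalization (690 higher, 500 lower) and 38.7% when batch 1 was tested alone (482 higher, 763 lower). Every one of the 1018 genes had the same sign in both batches. In 958 of them the 4 values of one group lay wholly above the 4 of the other, and over all genes the groups did not overlap in 1707 that were higher (10.6%) and 748 that were lower (4.66%). Among called genes, both the shared sign and the lack of overlap follow largely from the call itself, which rests on the same values. The median over all genes tested was 0.02. A change of at least 1 on the log2 scale was reached by 408 higher and 181 lower genes.

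The number of calls depended on single libraries. It was 269, 211, 263 and 538 without control b1r1, b1r2, b2r1 and b2r2, and 1306, 225, 1880 and 484 without the 4 Ad-GFP libraries in the same order. Of the 1018 genes, 180 passed in all 8 of those fits, 139 of them higher and 41 lower. Without both libraries low in Scgb1a1, 461 genes passed (361 higher, 100 lower), and with a term for high Xist 672 passed (487 higher, 185 lower). No called gene changed sign in any of these fits. Without Ad-GFP b2r1, 1069 genes were higher and 811 lower. Without Ad-GFP b1r1 the numbers were 893 and 413, and without control b2r2 297 and 241. Counts of list members with a library left out, given below, are to be read against such totals over all genes. Ad-GFP b1r1 and b2r1 held less scar RNA than b1r2 and b2r2: Col1a1, a chain of type I collagen, measured 139, 605, 205 and 748 TPM in the 4 Ad-GFP libraries.

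The largest rises among called genes were in an antibody gene, macrophage products and elastic matrix. Ighg1, the constant region of the IgG1 heavy chain, measured 1.63, 1.96, 25.7 and 2.43 TPM in control and 187, 47.4, 427 and 375 TPM in Ad-GFP lungs. It rose by 5.24 (SE 0.62, adjusted p = 0.0052), and every Ad-GFP value lay above every control value although control b2r1 was far above the other controls. Mmp12, the macrophage elastase, measured 15.3, 15.8, 11.7 and 10.5 TPM in control and 151, 787, 216 and 167 TPM in Ad-GFP lungs, and rose by 4.18 (SE 0.43, adjusted p = 0.00483). Retnla, a secreted product of alternatively activated macrophages, measured 178, 810.2, 225 and 59.1 TPM in control and 8221, 5857, 2108 and 2048 TPM in Ad-GFP lungs, and rose by 4.17 (SE 0.52, adjusted p = 0.00595). In both of these the groups were far apart, with the lowest Ad-GFP library well over the highest control. Tnc, which encodes the matrix glycoprotein tenascin C, rose by 3.98, Gpnmb, a lysosomal glycoprotein of macrophages, by 3.77, Eln, the gene for elastin, by 3.69, and Trem2, a lipid receptor of macrophages, by 3.33. Kng1, which encodes kininogen, the precursor of bradykinin, measured 0.02, 0, 0.04 and 0 TPM in control and 10, 15.1, 11.95 and 4.23 TPM in Ad-GFP lungs. It rose by 3.37 (SE 0.303, adjusted p = 0.00437), from almost nothing in every control to at least 4.23 TPM in every Ad-GFP lung. Ccl8, a chemokine, rose by 2.96. The 15 largest rises also held Saa3 (4.0), Sprr2a2 (3.72), Spp1 (3.62), Timp1 (3.47), Col1a1 (3.01) and Ccl2 (3.0). The call of Spp1 ended without control b1r2 or control b2r1 (adjusted p between 0.0538 and 0.0574). The calls of Saa3, Sprr2a2, Timp1, Col1a1 and Ccl2 each ended without any one of 5 to 7 of these libraries: the 4 controls, and Ad-GFP b1r1, b1r2 and b2r2 (adjusted p between 0.0506 and 0.144). Kng1 and Sprr2a2 lay under 1 TPM in every control. They met the filter for testing, 1 TPM in at least 4 of the 8 libraries, only through the Ad-GFP libraries. Sprr2a2, Ighg1 and Kng1 have close copies in the genome, so their reads may be shared with other genes.

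The largest fall among called genes was that of Fabp1, a fatty acid carrier. It measured 45.7, 17.5, 15.4 and 11.2 TPM in control and 2.42, 0.49, 0 and 0.22 TPM in Ad-GFP lungs, and fell by 3.69 (SE 0.343, adjusted p = 0.00437). Ear1, a ribonuclease of alveolar macrophages whose reads may be shared with its near copies, measured 123, 73.2, 57.8 and 67.6 TPM in control and 6.39, 7.55, 12.1 and 16.4 TPM in Ad-GFP lungs, and fell by 2.83 (SE 0.318, adjusted p = 0.00483). In both genes all 4 Ad-GFP lungs lay far under the lowest control. Bex2 (−2.92), Ankrd63 (−2.79), Cst8 (−2.78), Lrat (−2.55), an enzyme that esterifies retinol, Krt79 (−2.54), a keratin found in alveolar macrophages, Nrn1 (−2.22), Faim2 (−2.18) and Cidec (−2.17), a lipid droplet protein, fell and held their calls whichever library was left out. Inmt (−2.66), a methyltransferase of lung fibroblasts, Acoxl (−2.53), Colq (−2.30), Cytl1 (−2.21) and Car3 (−2.10), a carbonic anhydrase of fat, completed the 15. The calls of Inmt, Acoxl, Colq, Cytl1 and Car3 each ended without any one of 3 to 6 of these libraries: the 4 controls, and Ad-GFP b1r2 and b2r2 (adjusted p between 0.0554 and 0.142).

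**Figure D1:**
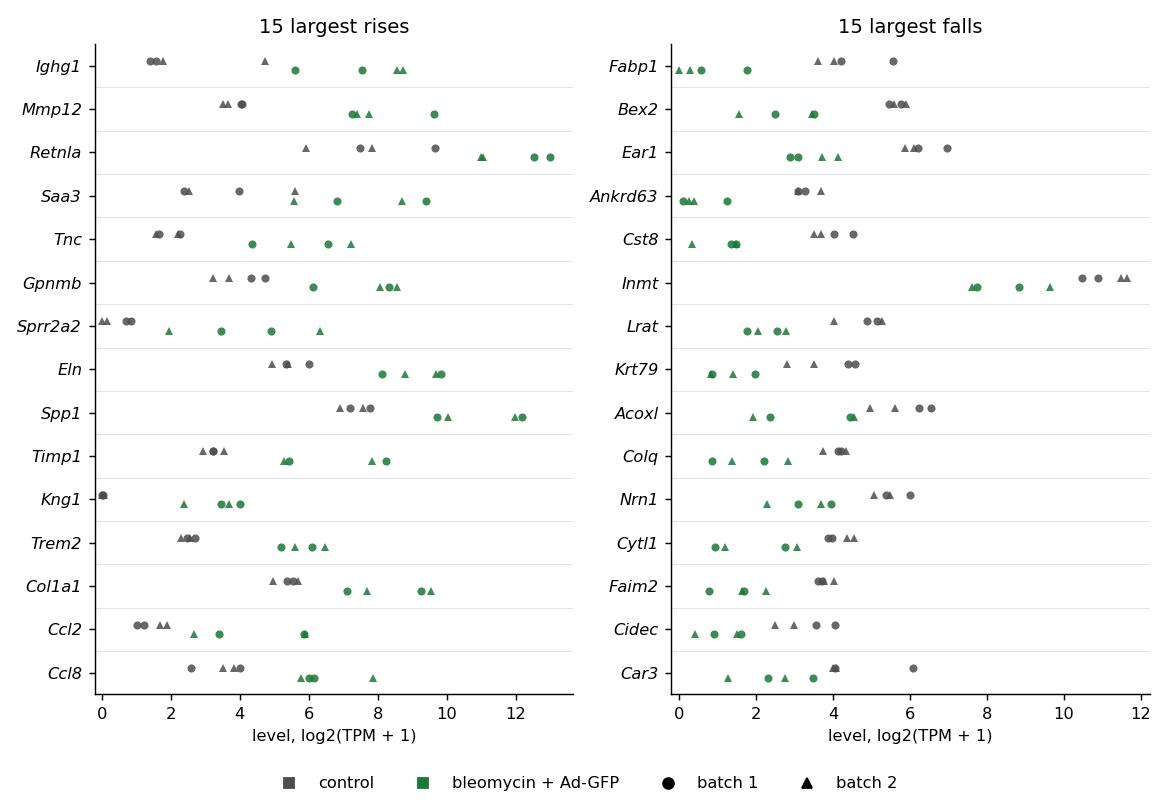
TPM on a log2(TPM + 1) axis for the 15 largest rises and the 15 largest falls, with control in grey, Ad-GFP in green, circles for batch 1 and triangles for batch 2. Groups separate in each gene drawn except Saa3, where 1 control library at 47.6 TPM lies above 1 Ad-GFP library at 46.7 TPM. The genes drawn were picked by their difference in these same libraries.

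Gene lists that describe lung cells and fibrotic processes were read by the number of members that passed, against the 4.33% of all genes that passed higher and the 2.01% that passed lower, and by their median. Lists of the cell cycle, matrix and lipid-handling macrophages had the highest medians, and lists of fat cells, B cells, red cells and alveolar fibroblasts were among the lowest.

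**Figure D2:**
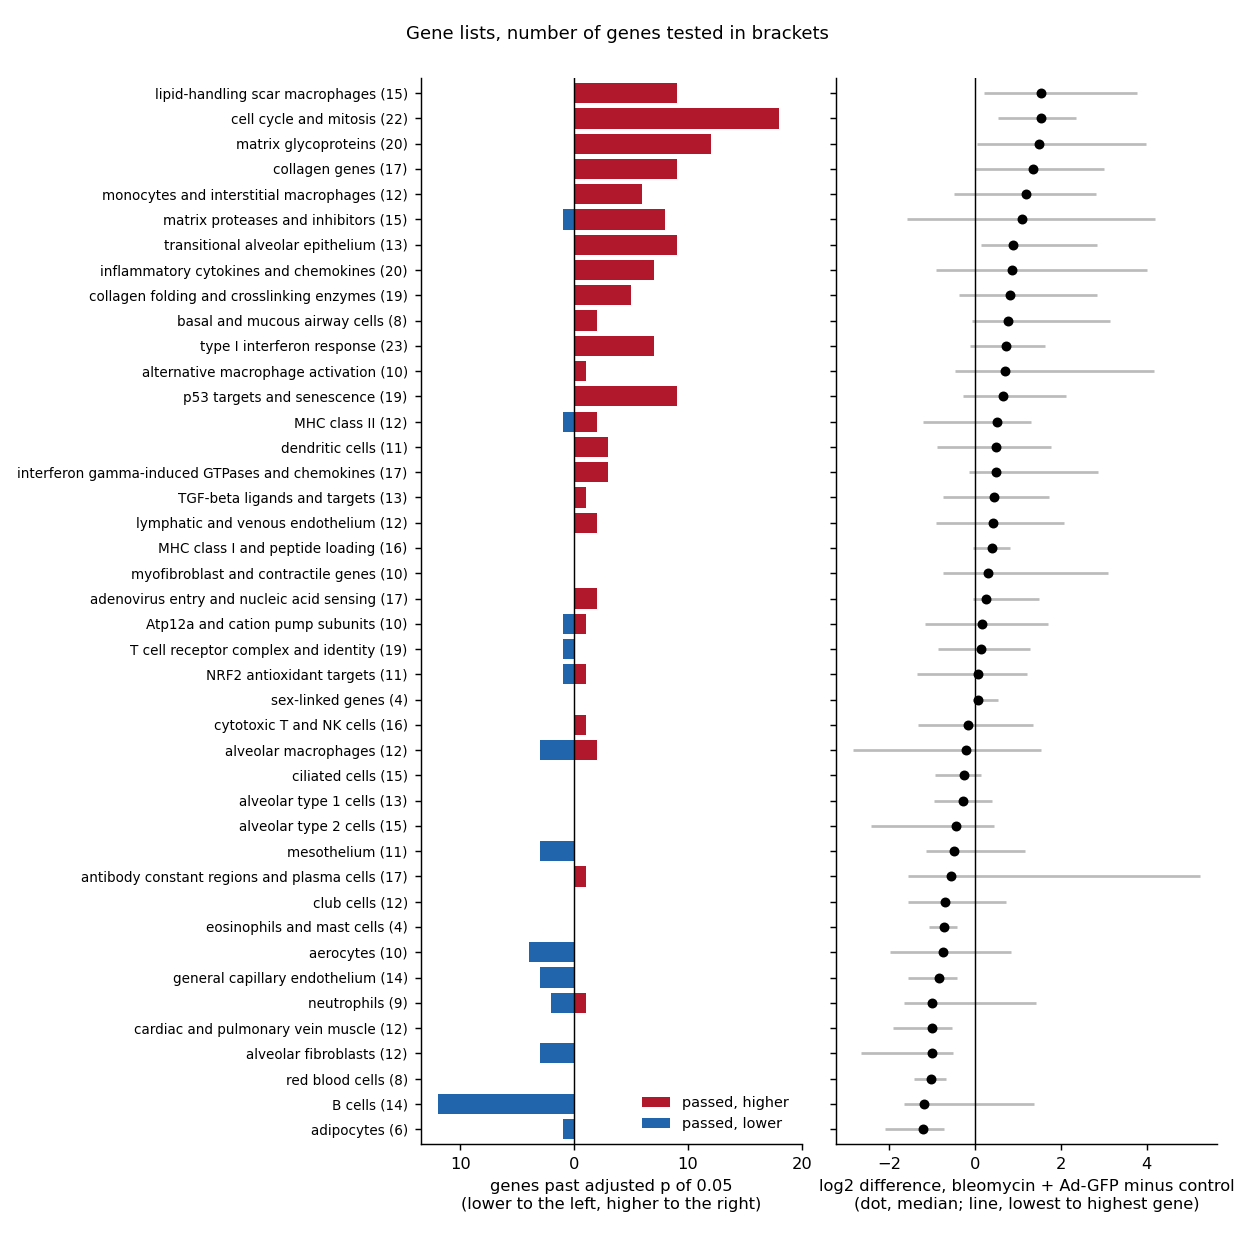
Left, members that passed lower (blue, to the left) or higher (red, to the right) in Ad-GFP than in control lungs for the 42 lists with at least 4 genes tested, and right, the median (dot) and the range from lowest to highest (line) of their log2 fold changes. Most of the cell cycle list lies to the right (18 of 22) and most of the B cell list to the left (12 of 14).

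Fibrillar collagen and the proteins that surround it were higher in Ad-GFP lungs. Of 17 collagen genes, 9 rose and none fell, with a median of 1.35 (0.88 in batch 1 and 1.75 in batch 2). Their summed level ranged from 607 to 984 TPM in control and from 1475 to 4921 TPM in Ad-GFP lungs. Col3a1, the type III collagen chain, measured 99.4, 109.6, 99.7 and 55.3 TPM in control and 414, 859, 595 and 935 TPM in Ad-GFP lungs. It rose by 2.91 (SE 0.308, adjusted p = 0.00483), with no overlap between the groups. Col6a3, a chain of the microfibrillar type VI collagen, measured 16.8, 26.4, 32.1 and 26.5 TPM in control and 57.8, 143, 76.7 and 144 TPM in Ad-GFP lungs, and rose by 1.94 (SE 0.312, adjusted p = 0.0147). Col3a1 and Col6a3 passed whichever library was left out. The others that rose were Col1a1 (3.01), Col1a2 (2.29), Col5a1 (2.47), Col5a2 (2.55), Col6a1 (0.98), Col6a2 (1.03) and Col15a1 (2.00). The calls of Col1a1, Col1a2, Col5a1, Col5a2, Col6a1, Col6a2 and Col15a1 each ended without any one of 5 to 6 of these libraries: the 4 controls, and Ad-GFP b1r2 and b2r2 (adjusted p between 0.0509 and 0.113). Basement membrane chains Col4a1 and Col4a2 had values of 1.35 and 1.08 that did not pass (adjusted p = 0.0625 and 0.0937). The count of 9 became 2 or 3 without any one control or Ad-GFP b1r2, 5 without Ad-GFP b2r2, 14 without Ad-GFP b1r1 and 11 without Ad-GFP b2r1.

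Matrix glycoproteins rose in 12 of 20 genes and fell in none, with a median of 1.48. Their summed level went from between 2151 and 2666 TPM in control to between 4113 and 11622 TPM in Ad-GFP lungs. Eln measured 63.3, 39.6, 29.6 and 41.1 TPM in control and 279, 906, 442 and 829 TPM in Ad-GFP lungs (SE 0.393, adjusted p = 0.00483), so that elastin RNA was several times the highest control in each Ad-GFP lung. Tnc measured 2.15, 3.84, 3.61 and 1.98 TPM in control and 19.3, 92.8, 44.3 and 148 TPM in Ad-GFP lungs (SE 0.542, adjusted p = 0.00784), with Ad-GFP b1r1 the lowest of its group and still above every control. Vcan, a large proteoglycan, measured 1.41, 2.12, 1.86 and 1.67 TPM in control and 7.30, 23.5, 9.28 and 15.9 TPM in Ad-GFP lungs, and rose by 2.32 (SE 0.326, adjusted p = 0.00882). Mfap5, a microfibril protein that binds elastin, rose by 1.31 (SE 0.178, adjusted p = 0.00778). These 4 passed whichever library was left out. Fn1 (2.19), which encodes fibronectin, Sparc (1.47), a collagen-binding protein, Thbs1 (1.33), Spp1 (3.62), which encodes osteopontin, Fbn1 (1.75), which encodes fibrillin, Ltbp2 (1.87), Cilp (2.14) and Emilin1 (0.96) rose too. The call of Sparc ended without control b1r1 (adjusted p = 0.0511). The call of Spp1 ended without control b1r2 or control b2r1 (adjusted p between 0.0538 and 0.0574). The call of Ltbp2 ended without control b2r1 or Ad-GFP b1r2 (adjusted p between 0.0624 and 0.0636). The calls of Fn1, Thbs1, Fbn1, Cilp and Emilin1 each ended without any one of 3 to 7 of these libraries: the 4 controls, and Ad-GFP b1r2, b2r1 and b2r2 (adjusted p between 0.052 and 0.135). Postn, the gene for periostin, had a value of 0.52 (adjusted p = 0.104), and Thbs2 of 2.06 (adjusted p = 0.114). The list's count ranged from 5 without control b2r1 to 15 without Ad-GFP b1r1; it was 6 without control b1r2 or Ad-GFP b1r2, 7 without control b1r1, and 8 without control b2r2 or Ad-GFP b2r2.

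Enzymes that fold and crosslink collagen rose in 5 of 19 genes and fell in none (median 0.81). Serpinh1, the collagen chaperone HSP47, measured 146, 163, 159.9 and 133 TPM in control and 264, 394, 277 and 281 TPM in Ad-GFP lungs, and rose by 1.00 (SE 0.149, adjusted p = 0.0111). Adamts2, which removes the amino propeptide of procollagen, measured 7.06, 9.03, 9.72 and 7.54 TPM in control and 20.4, 28.4, 41.96 and 42.7 TPM in Ad-GFP lungs, and rose by 1.83 (SE 0.192, adjusted p = 0.00483). Both calls held whichever library was left out. P4ha3 (2.84), a prolyl hydroxylase subunit, Loxl2 (1.89), a lysyl oxidase, and Fkbp10 (1.23), a collagen chaperone, were the other 3. The calls of P4ha3, Loxl2 and Fkbp10 each ended without any one of 3 to 6 of these libraries: the 4 controls, and Ad-GFP b1r2 and b2r2 (adjusted p between 0.0511 and 0.125). Lox, the founding lysyl oxidase, had a value of 2.11 that did not pass (adjusted p = 0.0782). The count was 2 or 3 without any one control, Ad-GFP b1r2 or Ad-GFP b2r2, 9 without Ad-GFP b1r1 and 8 without Ad-GFP b2r1.

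Proteases that cut matrix, and their inhibitors, moved in both directions. Of 15 tested, 8 rose and 1 fell (median 1.10). Mmp2, a gelatinase of fibroblasts, measured 39.2, 54.2, 49.1 and 25.4 TPM in control and 121, 134, 204 and 259 TPM in Ad-GFP lungs, and rose by 2.06 (SE 0.295, adjusted p = 0.00958). Mmp19 rose by 2.08 (SE 0.236, adjusted p = 0.00483), and both genes, like Mmp12 above, passed whichever library was left out. Mmp9, the gelatinase of neutrophils and macrophages, measured 10.1, 10.6, 9.62 and 4.5 TPM in control and 1.37, 2.24, 1.98 and 3.15 TPM in Ad-GFP lungs. It fell by 1.58 (SE 0.282, adjusted p = 0.0205) while the groups did not overlap. Mmp3 (0.90), Mmp13 (2.20), Mmp14 (2.14) and Timp1 (3.47), a tissue inhibitor of metalloproteinases, were among the other rises. The calls of Mmp3, Mmp9, Mmp13, Mmp14 and Timp1 each ended without any one of 4 to 6 of these libraries: the 4 controls, and Ad-GFP b1r2 and b2r2 (adjusted p between 0.0518 and 0.147). The count of rises was 3 without any one control or Ad-GFP b1r2, 4 without Ad-GFP b2r2, 9 without Ad-GFP b1r1 and 8 without Ad-GFP b2r1.

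Genes of TGF-beta signalling, the main inducer of scar matrix, and of contractile myofibroblasts gave few calls. Of 13 TGF-beta ligands and targets, 1 rose and none fell (median 0.44): Ltbp3, which helps to store latent TGF-beta, by 0.73 (SE 0.137, adjusted p = 0.0232). The call of Ltbp3 ended when any 1 of 4 libraries was left out, control b1r1, b1r2 and b2r2, and Ad-GFP b1r2 (adjusted p between 0.0515 and 0.0917). Tgfb1, the main ligand, had a value of 0.44 (adjusted p = 0.212), Pmepa1, a target gene, of 1.34 (adjusted p = 0.0561) and Smad7, the inhibitory Smad, of −0.75 (adjusted p = 0.0574). None of 10 myofibroblast and contractile genes passed (median 0.31). Grem1, a BMP antagonist, measured 0.39, 0.30, 0.74 and 0.25 TPM in control and 2.38, 28.2, 2.63 and 56.99 TPM in Ad-GFP lungs, which gave 3.09 with a wide error (SE 0.887, adjusted p = 0.0766). Its 4 Ad-GFP values split into a low pair, b1r1 and b2r1, and a high pair, b1r2 and b2r2. Acta2, the smooth muscle actin, had a value of 0.27 (adjusted p = 0.49). Without Ad-GFP b1r1, 6 TGF-beta genes and 2 myofibroblast genes were higher, and without Ad-GFP b2r1 it was 5 and 3, with 1 lower in each list.

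Macrophages of the fibrotic lung take up lipid and debris, and most of the genes listed for this state were higher. Of 15 such genes, 9 rose and none fell, with a median of 1.54 (0.99 in batch 1 and 1.77 in batch 2). Trem2 measured 5.57, 4.60, 4.87 and 3.96 TPM in control and 36.1, 67.6, 47.7 and 88.3 TPM in Ad-GFP lungs, and its adjusted p was 0.00325 (SE 0.262). Gpnmb measured 25.5, 19.1, 12.02 and 8.36 TPM in control and 68.99, 318, 265 and 373 TPM in Ad-GFP lungs (SE 0.55, adjusted p = 0.0103). In both, the lowest Ad-GFP lung was more than the highest control, and Ad-GFP b1r1 was the lowest of its group. Ctsk, a collagen-cleaving cathepsin, measured 36.1, 46.2, 25.9 and 25.3 TPM in control and 90.6, 197, 123 and 182 TPM in Ad-GFP lungs, and rose by 2.10 (SE 0.278, adjusted p = 0.00729), and Lgals3, which encodes galectin-3, rose by 1.58 (SE 0.241, adjusted p = 0.012). These 4 passed whichever library was left out. The lysosomal proteases Ctsb (1.38) and Ctsd (1.60), the vesicle protein Cd63 (1.24), the acid phosphatase Acp5 (1.87) and the proton pump subunit Atp6v0d2 (1.54) rose as well. The calls of Ctsb, Ctsd, Cd63, Acp5 and Atp6v0d2 each ended without any one of 3 to 7 of these libraries: the 4 controls, and Ad-GFP b1r2, b2r1 and b2r2 (adjusted p between 0.0503 and 0.139). Apoe, the lipid carrier, had a value of 1.67 that did not pass (adjusted p = 0.064). The list's other lipid-handling genes Fabp5, Lpl and Plin2 did not pass either. The list's count was 4 without control b1r2, control b2r1 or Ad-GFP b1r2, 5 without control b1r1 or control b2r2, 6 without Ad-GFP b2r2 and 13 without Ad-GFP b1r1. Lgals3 is also listed with transitional epithelium and Atp6v0d2 with alveolar macrophages.

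Resident alveolar macrophage genes divided. Of 12, 3 fell (Ear1, Krt79 and Cidec) and 2 rose (Itgax by 1.45, which encodes CD11c, and Atp6v0d2), with a median of −0.21. Krt79 measured 22.7, 19.8, 10.3 and 6.02 TPM in control and 2.92, 0.82, 1.66 and 0.78 TPM in Ad-GFP lungs (SE 0.327, adjusted p = 0.00659), and Cidec measured 15.7, 10.8, 6.86 and 4.66 TPM in control and 2.03, 0.88, 1.83 and 0.32 TPM in Ad-GFP lungs (SE 0.312, adjusted p = 0.00958). The calls of the 3 that fell held whichever library was left out (5 genes were lower without Ad-GFP b2r1), while the count of rises was 0 without control b2r1 or Ad-GFP b1r2 and 1 to 3 otherwise. The call of Itgax ended without control b2r1 or Ad-GFP b1r2 (adjusted p between 0.0574 and 0.0597). Car4, a carbonic anhydrase that is also listed with aerocytes, had a value of −0.90 (adjusted p = 0.13).

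Genes of monocytes and interstitial macrophages rose in 6 of 12 cases and fell in none (median 1.18). C1qb, a subunit of the first complement component, measured 42.1, 33.3, 38.9 and 28.5 TPM in control and 125, 296, 169 and 646 TPM in Ad-GFP lungs, and rose by 2.81 (SE 0.444, adjusted p = 0.0141). C1qa (2.58), C1qc (2.52), Ms4a7 (2.19) and the lipopolysaccharide co-receptor Cd14 (0.93) were among the others. Each Ad-GFP value of the 3 C1q subunits lay above each control value, and b2r2 was the highest. The call of C1qb ended without control b2r1 or Ad-GFP b1r2 (adjusted p between 0.0544 and 0.0564). The calls of C1qa, C1qc, Ms4a7 and Cd14 each ended without any one of 3 to 7 of these libraries: the 4 controls, and Ad-GFP b1r1, b1r2 and b2r2 (adjusted p between 0.0511 and 0.124). Ccr2, the receptor of recruited monocytes, had a value of 0.48 (adjusted p = 0.14). The count was 0 without control b2r1 or Ad-GFP b1r2, 1 without control b1r2 and 3 without control b1r1 or control b2r2. Of 10 genes of alternative activation, Retnla rose and none fell (median 0.70). Arg1, the arginase of these cells, measured 3.37, 3.80, 2.87 and 2.58 TPM in control and 12.2, 50.1, 8.29 and 234 TPM in Ad-GFP lungs, and its value of 3.08 did not pass (adjusted p = 0.08). Chil4, a chitinase-like protein with a near copy, was at or under 0.05 TPM in 3 controls, at 28.1 TPM in control b1r2 and between 6.22 and 69.5 TPM in Ad-GFP lungs.

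Among inflammatory cytokines and chemokines, 7 of 20 rose and none fell (median 0.85). Ccl8 measured 4.98, 15.1, 13.3 and 10.4 TPM in control and 63.1, 69.6, 53.8 and 232 TPM in Ad-GFP lungs (SE 0.453, adjusted p = 0.0122) and passed whichever library was left out. The monocyte attractants Ccl2 (3.0), Ccl7 (2.39) and Ccl12 (2.41), the chemokines Ccl3 (1.32) and Ccl9 (2.07) and the acute phase protein Saa3 (4.0) made up the rest. The calls of Ccl2, Ccl7, Ccl12, Ccl3, Ccl9 and Saa3 each ended without any one of 5 to 7 of these libraries: the 4 controls, and Ad-GFP b1r1, b1r2 and b2r2 (adjusted p between 0.0506 and 0.144). The inflammatory cytokines Il1b, Il6 and Tnf had values of −0.91, 0.86 and 0.85, and none passed (adjusted p = 0.0759, 0.106 and 0.0927). The count was 1 without control b1r2, b2r1 or b2r2 or Ad-GFP b1r2 or b2r2, 3 without control b1r1 and 10 without Ad-GFP b2r1.

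Neutrophil genes leaned lower: of 9 tested, 2 fell and 1 rose, with a median of −1.0. S100a9, a calcium-binding protein that fills the neutrophil, measured 333, 353, 350.0 and 99.5 TPM in control and 61.2, 80.7, 83.3 and 95.9 TPM in Ad-GFP lungs, and fell by 1.66 (SE 0.392, adjusted p = 0.0441). Cxcr2, the receptor that guides neutrophils, fell by 1.06 (adjusted p = 0.0488), and Ltf, the lactoferrin gene, rose by 1.41 (adjusted p = 0.0384). Control b2r2 was the lowest control for S100a9 and Cxcr2, and without it 6 of the 9 genes were lower. The calls of S100a9, Cxcr2 and Ltf each ended without any one of 6 of these libraries: the 4 controls, and Ad-GFP b1r1, b1r2 and b2r2 (adjusted p between 0.067 and 0.153). No neutrophil gene was lower without any 1 of the other controls or Ad-GFP b1r1, b1r2 or b2r2. Of the 4 eosinophil and mast cell genes tested none passed (median −0.73). Dendritic cell genes rose in 3 of 11 (median 0.49). Batf3, a transcription factor of cross-presenting dendritic cells, measured 2.78, 2.59, 2.96 and 2.14 TPM in control and 11.2, 10.3, 6.36 and 8.45 TPM in Ad-GFP lungs, and rose by 1.46 (SE 0.167, adjusted p = 0.00483) without overlap. Fscn1, an actin bundler of mature dendritic cells, rose by 1.78 and Ccl17, a chemokine, by 1.48. The call of Fscn1 ended without control b1r2 or Ad-GFP b1r2 (adjusted p between 0.0552 and 0.0562). The call of Ccl17 ended when any 1 of 6 libraries was left out, the 4 controls, and Ad-GFP b1r1 and b1r2 (adjusted p between 0.0523 and 0.134). The markers Xcr1 and Clec9a, both of cross-presenting dendritic cells, had values of 0.49 and −0.60 and did not pass (adjusted p = 0.218 and 0.237). Siglech, of plasmacytoid dendritic cells, had a value of −0.75 and did not pass (adjusted p = 0.327).

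B cell genes fell together. Of 14 tested, 12 fell and none rose, with a median of −1.18 (−1.10 in batch 1 and −1.22 in batch 2), where 2.01% of all genes fell. Cd79a, the signalling chain of the B cell receptor, measured 39.4, 48.4, 60.3 and 57.7 TPM in control and 20.1, 11.1, 17.2 and 19.9 TPM in Ad-GFP lungs. It fell by 1.55 (SE 0.181, adjusted p = 0.00483), and the highest Ad-GFP lung held 20.1 TPM against 39.4 TPM in the lowest control. Ms4a1, which encodes CD20, measured 18.9, 21.4, 20.8 and 21.02 TPM in control and 7.15, 2.86, 7.92 and 6.76 TPM in Ad-GFP lungs, and fell by 1.65 (SE 0.237, adjusted p = 0.00942). Bank1, a B cell scaffold protein, fell by 1.37 (SE 0.201, adjusted p = 0.0104). For all 3, no left-out library ended the call, and Ad-GFP b1r2 was the lowest lung of all 8. Cd79b (−1.49), the transcription factor Pax5 (−1.13), the IgE receptor Fcer2a (−1.02), the complement receptor Cr2 (−1.08), the kinase Blk (−1.11), Fcrla (−1.35), the follicle-homing receptor Cxcr5 (−1.39) and the BAFF receptor Tnfrsf13c (−1.07) were among the others that fell. The call of Cd79b ended without control b2r1 (adjusted p = 0.0508). The calls of Pax5, Fcer2a, Cr2, Blk, Fcrla, Cxcr5 and Tnfrsf13c each ended without any one of 3 to 7 of these libraries: the 4 controls, and Ad-GFP b1r2, b2r1 and b2r2 (adjusted p between 0.0509 and 0.137). The 2 that did not pass were Cd22 (−0.51, adjusted p = 0.246) and Cxcl13 (1.37, adjusted p = 0.0813), the attractant of B cells. The count of 12 was 8 without control b1r1, 4 without control b1r2, 3 without control b2r1, 7 without control b2r2, 6 without Ad-GFP b1r2 and 8 without Ad-GFP b2r2. The summed level of the list lay between 200 and 303 TPM in control and between 79.8 and 160 TPM in Ad-GFP lungs.

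Antibody genes gave 1 call. Of 17 constant region and plasma cell genes, Ighg1 rose and none fell (median −0.56), and their summed level ran from 1209 to 3718 TPM in control and from 815 to 4492 TPM in Ad-GFP lungs. Ighg2c, another IgG isotype, measured 246, 140.4, 9.33 and 182 TPM in control and 64.4, 6.2, 45.2 and 37.7 TPM in Ad-GFP lungs, and its value of −1.57 did not pass (adjusted p = 0.387). Jchain, which joins IgA and IgM, had a value of −0.67 (adjusted p = 0.68) and Igkc, the kappa light chain, of −0.41 (adjusted p = 0.754). Bleomycin alone gave Ighg1 values of 3.09, 1.66, 299 and 5.09 TPM, so 1 of those 4 lungs was within the Ad-GFP range. That lung, b2r1, was also the only one of the 4 high in Xist (144 TPM). Of the other lungs high in Xist, control b1r1 held 1.63 TPM of Ighg1 and Ad-GFP b1r1 187 TPM. The Ad-GFP lungs low in Xist held 47.4, 427 and 375 TPM. Between Ad-GFP and bleomycin alone Ighg1 differed by 4.04 (SE 1.13) and did not pass. Ighg1 had the smallest p of its list, and the other isotypes spread widely within each group. With any 1 library left out, the list had 1 rise, and without Ad-GFP b1r1 it had 2 falls.

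**Figure D3:**
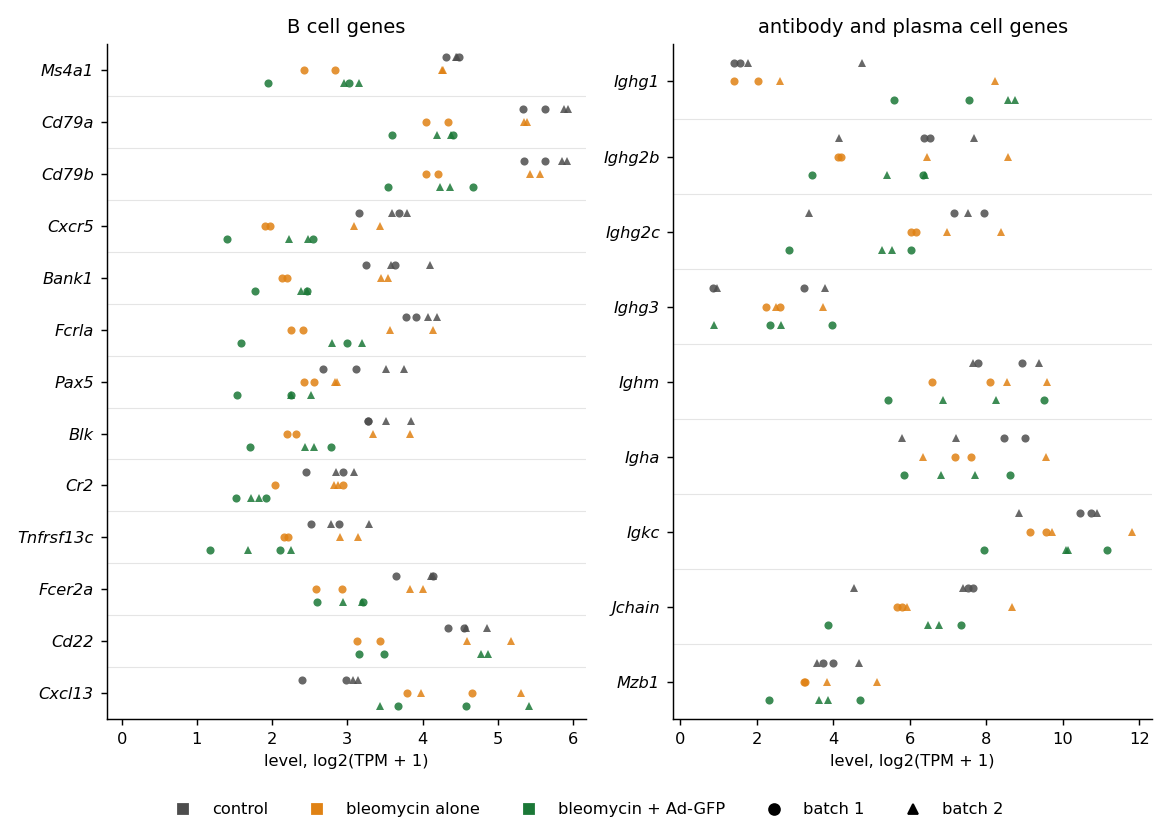
TPM on a log2(TPM + 1) axis of B cell genes and of antibody genes in control, bleomycin alone and Ad-GFP lungs, with circles for batch 1 and triangles for batch 2. Cd79a lies between 39.4 and 60.3 TPM in control and between 11.1 and 20.1 TPM in Ad-GFP lungs, while the antibody genes other than Ighg1 overlap between groups.

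T cell and killer cell genes gave 1 call in each direction. Of 19 genes of the T cell receptor complex and T cell identity, Cd2, an adhesion receptor, fell by 0.87 (adjusted p = 0.037) and none rose (median 0.15). Cd3e, a receptor chain, had a value of −0.20 (adjusted p = 0.561), Cd4 of 0.35 (adjusted p = 0.415) and Cd8a of 0.19 (adjusted p = 0.706). Of 16 genes of cytotoxic T and NK cells, Pdcd1, the checkpoint receptor PD-1, rose by 1.34 (adjusted p = 0.0421) and none fell (median −0.17). Gzma, a granzyme, had a value of −1.32 that did not pass (adjusted p = 0.0909). The calls of Cd2 and Pdcd1 each ended without any one of 6 of these libraries: the 4 controls, and Ad-GFP b1r1, b1r2 and b2r2 (adjusted p between 0.0562 and 0.124). Without Ad-GFP b2r1, 2 genes of the second list were higher and 3 lower.

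The interferon response was examined because adenoviral DNA is a known trigger of it. Interferons act through transcription factors that bind a short element, and the promoters of 3 risen genes that hold its core are shown. They are the 250 bases before the start of the gene in RefSeq's GRCm38.p6 (the files' own build is GRCm39). The core searched was GAAANNGAA on both strands, in capitals:
Isg15 (chr4:156200819-156201068, minus strand): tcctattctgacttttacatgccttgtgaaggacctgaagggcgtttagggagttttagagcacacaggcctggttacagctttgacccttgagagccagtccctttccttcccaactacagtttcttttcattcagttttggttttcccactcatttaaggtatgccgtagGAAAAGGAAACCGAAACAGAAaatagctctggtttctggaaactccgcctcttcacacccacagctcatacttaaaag
Ifit1 (chr19:34640639-34640888, plus strand): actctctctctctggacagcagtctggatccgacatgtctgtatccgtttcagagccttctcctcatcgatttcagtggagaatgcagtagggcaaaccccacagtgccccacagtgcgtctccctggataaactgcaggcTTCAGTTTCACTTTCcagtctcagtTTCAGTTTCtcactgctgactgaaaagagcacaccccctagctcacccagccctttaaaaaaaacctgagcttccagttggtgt
Oas1a (chr5:120907526-120907775, minus strand): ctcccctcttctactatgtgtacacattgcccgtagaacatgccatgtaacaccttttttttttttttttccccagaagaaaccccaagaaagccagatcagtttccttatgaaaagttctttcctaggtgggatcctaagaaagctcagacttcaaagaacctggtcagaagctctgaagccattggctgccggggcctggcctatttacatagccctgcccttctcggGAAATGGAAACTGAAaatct
Matches in Isg15 begin 78, 72 and 66 bases before the start and overlap one another. Ifit1 holds its 3 on the reverse strand, 109, 103 and 84 bases before the start, and Oas1a holds 2 that overlap, 20 and 14 bases before it. Of 23 type I interferon genes tested, 16 had an entry in the promoter table and 9 of those held the core, which 8.18% of all 27025 symbols in the table hold. Oasl2, which also rose, had an entry and no match. A match does not show that the element is active.

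Of these 23 genes, 7 rose and none fell, with a median of 0.72 (0.73 in each batch). Oas1a, a sensor of double-stranded RNA, measured 7.58, 4.58, 7.48 and 4.11 TPM in control and 17.3, 14.5, 12.6 and 27.5 TPM in Ad-GFP lungs, and rose by 1.43 (SE 0.278, adjusted p = 0.0255). Mx1, an antiviral GTPase, rose by 1.63 (SE 0.316, adjusted p = 0.0255), and Ifit1, which binds viral RNA, by 1.11 (SE 0.243, adjusted p = 0.0352). In all 3 every Ad-GFP lung was above every control. Isg15 (1.39), a ubiquitin-like modifier, Oas2 (1.35), Oasl2 (0.89) and the tethering protein Bst2 (0.67) rose too, with 1 overlap of the groups in Isg15. The calls of Oas1a, Mx1, Ifit1, Isg15, Oas2, Oasl2 and Bst2 each ended without any one of 4 to 7 of these libraries: the 4 controls, and Ad-GFP b1r1, b1r2 and b2r2 (adjusted p between 0.0566 and 0.154). Irf7, the factor that amplifies interferon, had a value of 1.16 (adjusted p = 0.0943). The count was 0 without control b1r2, b2r1 or b2r2 or Ad-GFP b1r2, and 2 without control b1r1, Ad-GFP b1r1 or Ad-GFP b2r2. It was 14 without Ad-GFP b2r1, where 1069 of all 16055 genes were higher. Against bleomycin alone the list's median was −0.04 and 0 of the 23 genes reached an unadjusted p under 0.05, where 2.28% of all genes did. In a list of this size a count of 0 is near that share, so it does not set the list apart from other genes.

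Of 17 genes of adenovirus entry and nucleic acid sensing, 2 rose and none fell (median 0.25). Zbp1, a sensor of Z-form nucleic acid, measured 8.39, 8.58, 12.02 and 9.19 TPM in control and 25.7, 22.5, 18.9 and 60.9 TPM in Ad-GFP lungs, and rose by 1.5 (SE 0.31, adjusted p = 0.0308), and Tmem173, the DNA-sensing adaptor STING, rose by 1.05. Cxadr, the receptor to which many adenoviruses attach, had a value of −0.05 (adjusted p = 0.891). The calls of Zbp1 and Tmem173 each ended without any one of 5 to 6 of these libraries: the 4 controls, and Ad-GFP b1r2 and b2r2 (adjusted p between 0.0587 and 0.136). Genes induced by interferon gamma rose in 3 of 17 cases (median 0.49). Cxcl10, which attracts activated T cells, measured 3.63, 2.44, 2.64 and 2.64 TPM in control and 20.2, 29.4, 11.2 and 56.5 TPM in Ad-GFP lungs, and rose by 2.77 (SE 0.417, adjusted p = 0.0115), without overlap, whichever library was left out. Cxcl9 rose by 2.86 and Tgtp1, a GTPase with a near copy, by 2.23. The calls of Cxcl9 and Tgtp1 each ended without any one of 4 to 6 of these libraries: the 4 controls, and Ad-GFP b1r1 and b1r2 (adjusted p between 0.0503 and 0.103). The count was 6 without Ad-GFP b2r1 and 4 without Ad-GFP b2r2. The GTPases Gbp2 and Irgm1 had values of 0.45 and 0.84 that did not pass (adjusted p = 0.316 and 0.112).

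No gene of MHC class I and peptide loading passed (0 of 16, median 0.39), although H2-K1 measured 1103, 993, 1191 and 1232 TPM in control and 2286, 1576, 1589 and 2707 TPM in Ad-GFP lungs with no overlap (0.82, adjusted p = 0.0578). Without Ad-GFP b2r1, 4 of them were higher. In the MHC class II list 2 of 12 rose and 1 fell (median 0.51). Cd86, a ligand that co-stimulates T cells, measured 6.06, 5.34, 5.11 and 6.45 TPM in control and 16.7, 12.8, 13.03 and 21.1 TPM in Ad-GFP lungs, and rose by 1.30 (SE 0.181, adjusted p = 0.00827), whichever library was left out. H2-DMb1, which helps to load peptide, rose by 0.64, and H2-Ob, a subunit made mainly in B cells, fell by 1.22. The calls of H2-DMb1 and H2-Ob each ended without any one of 5 of these libraries: the 4 controls, and Ad-GFP b1r2 and b2r2 (adjusted p between 0.0519 and 0.102). Without Ad-GFP b2r1, 4 of the 12 were higher. H2-Ab1, a chain of the presenting molecule itself, had a value of 0.63 (adjusted p = 0.0706).

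Genes of dividing cells rose in 18 of 22 cases. Their promoters were searched on both strands for the letters TTTGAA, one form of a short element known from late cell cycle genes. The 250 bases before the start are shown for 3 of the risen genes that hold the letters, in capitals (RefSeq, GRCm38.p6):
Cdk1 (chr10:69352913-69353162, minus strand): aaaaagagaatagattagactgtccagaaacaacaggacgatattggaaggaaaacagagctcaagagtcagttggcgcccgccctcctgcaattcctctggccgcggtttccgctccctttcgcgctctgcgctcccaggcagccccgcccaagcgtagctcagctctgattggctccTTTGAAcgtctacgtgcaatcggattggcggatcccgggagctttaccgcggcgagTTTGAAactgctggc
Ccnb2 (chr9:70421555-70421804, minus strand): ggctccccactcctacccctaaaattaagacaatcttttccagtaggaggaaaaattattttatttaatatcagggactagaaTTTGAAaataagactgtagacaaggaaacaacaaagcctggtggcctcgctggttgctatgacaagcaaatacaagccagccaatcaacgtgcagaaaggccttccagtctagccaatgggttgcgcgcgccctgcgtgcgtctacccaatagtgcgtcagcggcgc
Cdc20 (chr4:118437344-118437593, minus strand): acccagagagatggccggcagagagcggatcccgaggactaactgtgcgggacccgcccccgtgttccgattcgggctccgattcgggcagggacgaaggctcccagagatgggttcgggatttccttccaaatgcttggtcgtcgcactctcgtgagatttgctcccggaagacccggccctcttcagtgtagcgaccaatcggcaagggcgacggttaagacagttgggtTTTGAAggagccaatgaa
Cdk1 holds the letters 71 and 15 bases before the start, Ccnb2 167 bases and Cdc20 18 bases before it. Of 22 cell cycle genes tested, 19 had an entry and 7 of those held the letters, which 18.3% of all symbols in the table hold. A match to so short a run of letters does not show that the element is there.

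Of the 22 genes, 18 rose and none fell, with a median of 1.53 (1.65 in batch 1 and 1.48 in batch 2). Cdk1, the kinase that drives entry into mitosis, measured 7.55, 6.63, 6.14 and 3.12 TPM in control and 29.8, 50.3, 28.4 and 26.2 TPM in Ad-GFP lungs. It rose by 2.34 (SE 0.216, adjusted p = 0.00437), and the lowest Ad-GFP lung held more than the highest control by a wide gap. Mki67, which encodes the Ki-67 protein of dividing cells, measured 4.80, 4.46, 4.34 and 3.05 TPM in control and 12.9, 19.7, 19.6 and 17.8 TPM in Ad-GFP lungs, and rose by 1.84 (SE 0.188, adjusted p = 0.00483). Ccnb2, a mitotic cyclin, measured 3.17, 2.65, 3.81 and 1.84 TPM in control and 10.8, 22.3, 10.3 and 12.8 TPM in Ad-GFP lungs, and rose by 1.92 (SE 0.257, adjusted p = 0.00741). Cdc20, an activator of the anaphase-promoting complex, measured 4.56, 4.69, 5.15 and 3.79 TPM in control and 13.8, 19.6, 14.7 and 11.5 TPM in Ad-GFP lungs, and rose by 1.5 (SE 0.17, adjusted p = 0.00483). The cyclins Ccnb1 (1.90) and Ccna2 (1.88), the topoisomerase Top2a (1.89), the kinases Aurka (1.49), Aurkb (1.62) and Plk1 (1.57), Birc5 (1.93), which encodes survivin, the motor Kif11 (1.35), the kinetochore proteins Cenpe (1.42) and Cenpf (1.62) and the nucleotide enzymes Rrm2 (1.79) and Tyms (1.41) rose as well. Those 16 passed whichever library was left out. The kinase Bub1 (0.86) and the motor Kif20a (1.46) completed the 18. The calls of Bub1 and Kif20a each ended without any one of 5 to 6 of these libraries: the 4 controls, and Ad-GFP b1r2 and b2r2 (adjusted p between 0.0526 and 0.117). Pcna, Mcm2 and Mcm5, which act in DNA replication, and Bub1b had values of 0.53, 0.56, 0.77 and 0.70 that did not pass (adjusted p = 0.0636, 0.104, 0.0731 and 0.203). The count stayed between 16 and 18 whichever library was left out, and the groups did not overlap in 20 of the 22. Summed, the list lay between 135 and 177 TPM in control and between 343 and 538 TPM in Ad-GFP lungs.

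Targets of p53, the factor that DNA damage activates, rose in 9 of 19 cases and fell in none (median 0.66). Cdkn1a, the cell cycle inhibitor p21, measured 57.9, 59.2, 28.4 and 39.3 TPM in control and 155, 201, 165 and 282 TPM in Ad-GFP lungs, and rose by 2.12 (SE 0.265, adjusted p = 0.00595). Gdf15, a stress cytokine, measured 1.82, 0.89, 0.67 and 1.13 TPM in control and 5.31, 5.93, 5.36 and 5.36 TPM in Ad-GFP lungs, and rose by 1.64 (SE 0.181, adjusted p = 0.00483). The Ad-GFP values of Gdf15 were close to one another and far above the controls. Phlda3 (0.98) and Bax (0.89), an inhibitor of Akt and a pore-forming death protein, also passed whichever library was left out. Eda2r (1.11), Aen (0.73), Ccng1 (0.77), Sesn2 (0.66) and the death receptor Tnfrsf10b (0.79) rose. The calls of Eda2r, Aen, Ccng1, Sesn2 and Tnfrsf10b each ended without any one of 5 to 6 of these libraries: the 4 controls, and Ad-GFP b1r2 and b2r2 (adjusted p between 0.0509 and 0.118). Mdm2, the inhibitor of p53 that is itself a target, had a value of 0.39 (adjusted p = 0.0691), and Cdkn2a, a gene of senescent cells, of 0.90 (adjusted p = 0.166). The count was 4 or 5 without any one control, Ad-GFP b1r2 or Ad-GFP b2r2, 9 without Ad-GFP b1r1 and 11 without Ad-GFP b2r1. Of 11 NRF2 antioxidant targets, Hmox1, the haem oxygenase, rose by 1.21 (adjusted p = 0.0213) and Gstm1, a glutathione transferase, fell by 1.35 (adjusted p = 0.0429), with a median of 0.08. The calls of Hmox1 and Gstm1 each ended without any one of 5 to 6 of these libraries: the 4 controls, and Ad-GFP b1r2 and b2r2 (adjusted p between 0.0541 and 0.144). Without Ad-GFP b1r1, 2 of these targets were higher.

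**Figure D4:**
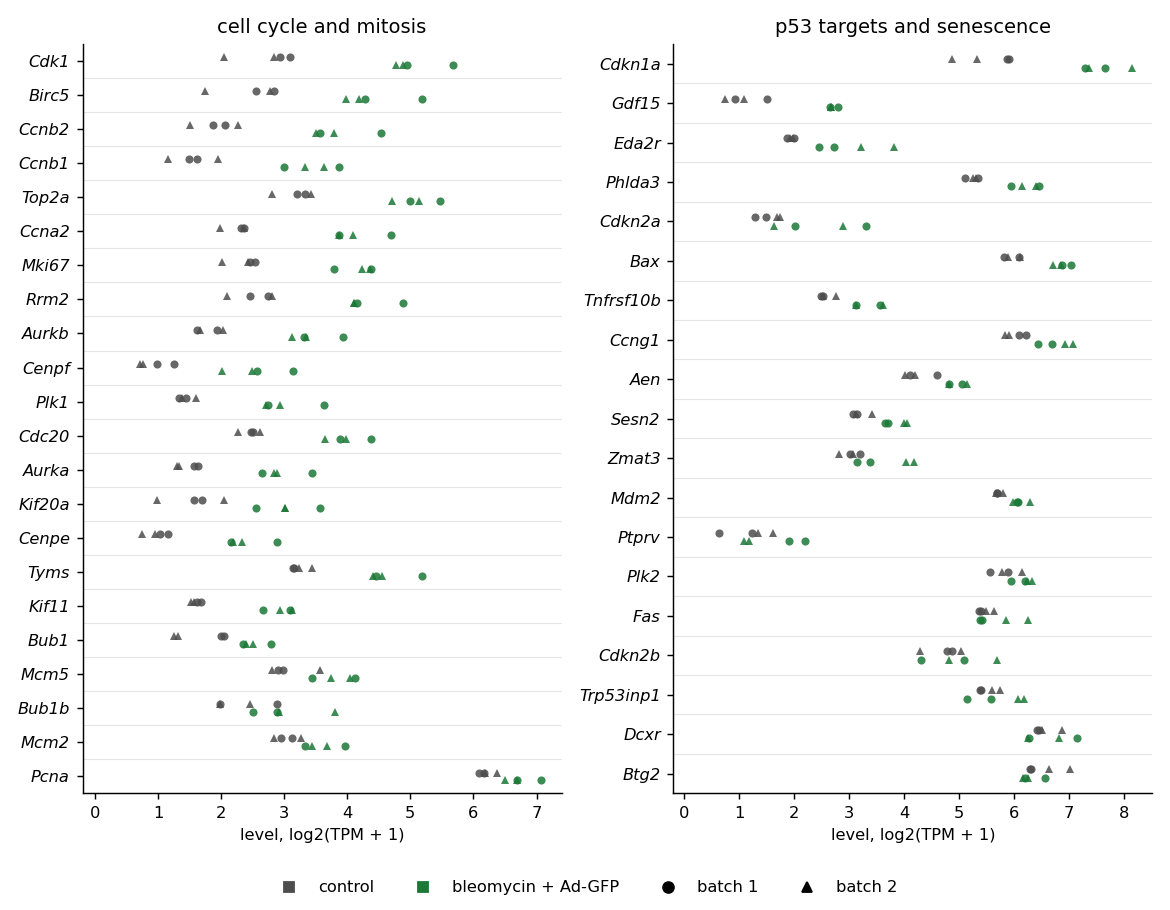
TPM on a log2(TPM + 1) axis of cell cycle genes and p53 targets in the 4 control (grey) and 4 Ad-GFP (green) lungs, with circles for batch 1 and triangles for batch 2. Cdk1 lies between 3.12 and 7.55 TPM in control and between 26.2 and 50.3 TPM in Ad-GFP lungs.

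Injured alveolar epithelium passes through a transitional state marked by keratin 8, and genes of this state rose in 9 of 13 cases with none falling (median 0.88). Sprr1a, a cornified envelope protein, measured 1.5, 0.81, 0.22 and 0.41 TPM in control and 10.1, 14.5, 5.6 and 16.9 TPM in Ad-GFP lungs, and rose by 2.84 (SE 0.312, adjusted p = 0.00483). Areg, a ligand of the EGF receptor, measured 5.89, 3.93, 4.62 and 5.95 TPM in control and 26.4, 16.2, 16.7 and 24.01 TPM in Ad-GFP lungs, and rose by 1.82 (SE 0.207, adjusted p = 0.00483). Neither overlapped, and both passed whichever library was left out, as did Lgals3. The claudin Cldn4 (2.46), Sfn (1.74), a target of p53, Tnip3 (1.81), the keratins Krt8 (0.74) and Krt18 (0.73) and the growth factor Hbegf (0.65) rose. The calls of Cldn4, Sfn, Tnip3, Krt8, Krt18 and Hbegf each ended without any one of 4 to 7 of these libraries: the 4 controls, and Ad-GFP b1r1, b1r2 and b2r2 (adjusted p between 0.0508 and 0.136). The count was 3 without control b1r1, b1r2 or b2r1 or Ad-GFP b1r2, 4 without control b2r2 and 6 without Ad-GFP b2r2.

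Differentiated epithelium showed no called change. None of 15 alveolar type 2 genes passed (median −0.44), and their summed level spread from 9365 to 42416 TPM within Ad-GFP lungs, against 27916 to 39277 TPM in control. Lyz1, a lysozyme, measured 768, 637, 429 and 145 TPM in control and 128, 27.6, 235 and 44.2 TPM in Ad-GFP lungs, and its value of −2.41 did not pass (adjusted p = 0.0891). Sftpc had a value of −0.44 (adjusted p = 0.673). None of 13 alveolar type 1 genes (median −0.29), none of 12 club cell genes (median −0.69) and none of 15 ciliated cell genes (median −0.26) passed. Hopx, a cofactor of type 1 cells, measured 927, 1116, 1246 and 961 TPM in control and 687, 714, 787 and 539.7 TPM in Ad-GFP lungs without overlap, a value of −0.64 (adjusted p = 0.0658). Cyp2f2, a club cell enzyme, had a value of −1.22 (adjusted p = 0.148), with Ad-GFP b1r1 among the controls. Lower genes appeared when 1 library was left out: 5 of type 2 and 3 of type 1 cells without Ad-GFP b2r1, and 6 of club and 3 of ciliated cells without Ad-GFP b1r1. Of 8 genes of basal and mucous airway cells tested, 2 rose (median 0.76). Reg3g, a secreted antibacterial lectin, measured 40.03, 50.7, 32.2 and 13.8 TPM in control and 217, 218, 51.6 and 100.4 TPM in Ad-GFP lungs, and rose by 1.98 (SE 0.293, adjusted p = 0.0109), whichever library was left out. Agr2, which folds mucins, rose by 2.00 (adjusted p = 0.015). The call of Agr2 ended when any 1 of 3 libraries was left out, control b1r1, b1r2 and b2r1 (adjusted p between 0.0506 and 0.0585). The basal cell markers Krt5, Krt14, Krt15 and Trp63 were too low to be tested.

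Among pumps and transporters related to Atp12a, 1 of 10 tested rose and 1 fell (median 0.16). Slc26a4, the anion exchanger pendrin, measured 5.22, 6.16, 1.74 and 1.08 TPM in control and 17.9, 17.5, 16.4 and 3.81 TPM in Ad-GFP lungs, and rose by 1.71 (SE 0.356, adjusted p = 0.0312), although Ad-GFP b2r2 lay within the control range. The call of Slc26a4 ended when any 1 of 5 libraries was left out, the 4 controls and Ad-GFP b1r2 (adjusted p between 0.0734 and 0.0929). Without Ad-GFP b1r1, 2 of the 10 were higher. Atp4a and Atp4b, the subunits of the gastric proton pump, were too low to be tested.

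Capillary genes that changed were lower in Ad-GFP lungs. General capillary endothelium fell in 3 of 14 genes (median −0.85; −1.08 in batch 1 and −0.52 in batch 2), with none rising. Kdr, the main VEGF receptor, measured 123, 131, 190.2 and 118 TPM in control and 36.5, 35.7, 124 and 42.5 TPM in Ad-GFP lungs, and fell by 1.41 (SE 0.327, adjusted p = 0.0421). Ad-GFP b2r1 lay among the controls, the other 3 far below. Tek, the angiopoietin receptor, fell by 1.11 and Ptprb, its phosphatase, by 1.10. Aerocytes, the capillary cells of gas exchange, fell in 4 of 10 genes (median −0.75). Ednrb, an endothelin receptor, measured 38.8, 45.4, 77.2 and 49.8 TPM in control and 10.6, 7.90, 37.4 and 6.73 TPM in Ad-GFP lungs, and fell by 1.98 (SE 0.431, adjusted p = 0.0352). Fibin (−1.63), Cyp4b1 (−1.54) and Chst1 (−0.83) fell too. The calls of Kdr, Tek, Ptprb, Ednrb, Fibin, Cyp4b1 and Chst1 each ended without any one of 5 to 7 of these libraries: the 4 controls, and Ad-GFP b1r1, b1r2 and b2r2 (adjusted p between 0.0511 and 0.149). Pecam1, the general endothelial marker, had a value of −0.61 (adjusted p = 0.154). Without Ad-GFP b2r1, 11 capillary and 7 aerocyte genes were lower, where 811 of all 16055 genes were. Without any one of the other 7 libraries the counts were 0 to 2 and 0 to 4.

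Lymphatic and venous genes rose in 2 of 12 cases (median 0.43). Ccl21a, a chemokine of lymphatic vessels with near copies, measured 162, 151, 152 and 136 TPM in control and 259, 253, 294 and 427 TPM in Ad-GFP lungs, and rose by 1.00 (SE 0.17, adjusted p = 0.0173), and Prox1, the lymphatic transcription factor, rose by 0.81. The call of Ccl21a ended without control b1r2 or control b2r1 (adjusted p between 0.0592 and 0.0633). The call of Prox1 ended when any 1 of 6 libraries was left out, the 4 controls, and Ad-GFP b1r2 and b2r2 (adjusted p between 0.0722 and 0.108). Without Ad-GFP b2r1, 4 of the 12 were higher. Alveolar fibroblast genes fell in 3 of 12 cases with none rising (median −1.01; −1.47 in batch 1 and −1.05 in batch 2). Inmt measured 1421, 1899, 3202 and 2859.6 TPM in control and 459, 215, 792 and 195 TPM in Ad-GFP lungs (SE 0.429, adjusted p = 0.0147). The ligand Wnt2 fell by 1.40 and the receptor Fgfr4 by 1.45. The calls of Inmt, Wnt2 and Fgfr4 each ended without any one of 3 to 6 of these libraries: the 4 controls, and Ad-GFP b1r2 and b2r2 (adjusted p between 0.0554 and 0.156). Tcf21, a transcription factor of these fibroblasts, had a value of −1.0 (adjusted p = 0.159). Their count was 0 without control b1r2, control b2r1 or Ad-GFP b1r2, 1 without control b1r1, and 2 without control b2r2 or Ad-GFP b2r2. It was 5 without Ad-GFP b1r1 and 10 without Ad-GFP b2r1, where 413 and 811 of all genes were lower. Mesothelial genes fell in 3 of 11 cases (median −0.49). Gpm6a, a membrane glycoprotein, measured 53.5, 71.2, 68.7 and 74.00 TPM in control and 29.2, 26.2, 36.5 and 26.3 TPM in Ad-GFP lungs, and fell by 1.15 (SE 0.143, adjusted p = 0.00595), whichever library was left out. Lrrn4 fell by 0.85 and Nkain4 by 0.81. The calls of Lrrn4 and Nkain4 each ended without any one of 4 of these libraries: the 4 controls and Ad-GFP b1r2 (adjusted p between 0.0523 and 0.0917). Msln, the gene for mesothelin, had a value of 1.16 (adjusted p = 0.0823).

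Markers of red cells, of cardiac and skeletal muscle and of fat were lower on average, while those of liver were not. The part of blood and of tissue next to the lung in the results above was not tested. None of 8 red cell genes passed (median −1.02), and their summed level was 16534 to 50997 TPM in control and 10454 to 23907 TPM in Ad-GFP lungs. None of 12 genes of cardiac and pulmonary vein muscle passed (median −1.0; 428 to 881 TPM and 110 to 820 TPM). One of 6 adipocyte genes fell, Car3 (median −1.21), and the summed level was 34.9 to 135 TPM in control and 5.18 to 30.8 TPM in Ad-GFP lungs. Adiponectin, Adipoq, measured 9.28, 2.28, 3.26 and 2.15 TPM in control and 1.76, 0.77, 1.40 and 0.26 TPM in Ad-GFP lungs (−1.23, adjusted p = 0.0917). None passed of 3 skeletal muscle genes (median −0.32), 3 thymocyte genes (median −0.15), 2 liver genes (median 0.33) or 4 genes of the Y chromosome (median 0.07). The liver marker Alb was at most 1.21 TPM, and the thymocyte markers Rag1, Rag2 and Dntt were too low to be tested. Without control b2r2, 5 of the red cell genes were lower, and without Ad-GFP b2r1, 4 cardiac and 3 adipocyte genes were.

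Lungs with and without the vector were then compared among bleomycin lungs, the comparison that bears on Ad-GFP itself. Xist was high in bleomycin-alone b2r1 (144 TPM) and in Ad-GFP b1r1, so it was unbalanced within both batches. Scgb1a1 was low in bleomycin-alone b2r2 (128 TPM) and in Ad-GFP b1r1. No gene passed: 0 of 16055 had an adjusted p under 0.05 by limma, 366 (2.28%) had an unadjusted p under 0.05, and the smallest adjusted p was 0.153. With a term for high Xist, 0 genes passed as well. Of the 1018 genes that differed from control, 35 (3.44%) had an unadjusted p under 0.05 in the main fit. The 2 kininogen genes had the smallest p. Kng1 measured 0.48, 0.52, 0.33 and 0.54 TPM with bleomycin alone, so that every Ad-GFP lung held more (log2 difference 2.84, SE 0.301, unadjusted p = 1.9e-05, adjusted p = 0.153). Kng1 was among the genes tested only because its Ad-GFP libraries met the filter. Genes high with bleomycin alone and low in both other groups were not tested. Kng2, its near copy, measured 1.29, 1.61, 2.79 and 3.38 TPM with bleomycin alone and 5.30, 6.32, 7.54 and 8.93 TPM with Ad-GFP (1.33, SE 0.133, unadjusted p = 1.3e-05, adjusted p = 0.153). Against control Kng2 rose by 2.13 (adjusted p = 0.0268). The call of Kng2 ended when any 1 of 5 libraries was left out, control b1r2, b2r1 and b2r2, and Ad-GFP b1r2 and b2r2 (adjusted p between 0.0654 and 0.0893). Hpse, the heparanase gene, was next with 0.87 (adjusted p = 0.227). Kng1 passed without Ad-GFP b2r2 (adjusted p = 0.00738), with all 16 libraries in the fit (adjusted p = 0.00994) and with array weights (adjusted p = 0.00482), where Kng2 and Hpse passed as well (adjusted p = 0.0114 and 0.0214).

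The other genes among the 10 smallest p-values of that comparison had adjusted p-values of 1. Higher with the vector were Hba-a1 (0.92) and Alas2 (0.93), of red cells, Tbx3os1 (0.79) and Chil4 (3.21). Chil4 measured 0.91, 1.57, 0.26 and 0.75 TPM with bleomycin alone and 69.5, 6.22, 6.60 and 19.8 TPM with Ad-GFP. Lower were Siglecf (−0.76), the sialic acid receptor of alveolar macrophages and eosinophils, Pilrb2 (−0.91) and Fgf13 (−0.70), and in these 3 no Ad-GFP value reached the lowest bleomycin value. By list, 6 of 8 red cell genes had an unadjusted p under 0.05 against bleomycin alone (median 0.86, where the median over all genes was −0.02). So did 4 of 14 B cell genes (median −0.54), 3 of 10 genes of alternative macrophage activation (−0.01), 3 of 11 dendritic cell genes (−0.38), 3 of 12 alveolar macrophage genes (−0.27), 3 of 17 antibody and plasma cell genes (−0.36), 2 of 8 basal and mucous airway genes (0.77) and 1 of 4 eosinophil and mast cell genes (−0.11). Of 17 genes induced by interferon gamma 1 did (median 0.38). In the collagen, matrix glycoprotein, cell cycle, p53, type I interferon and transitional epithelium lists 0 genes did, and their medians lay between −0.30 and −0.04. For lists of this size a count of 0 is near the 2.28% over all genes.

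**Figure D5:**
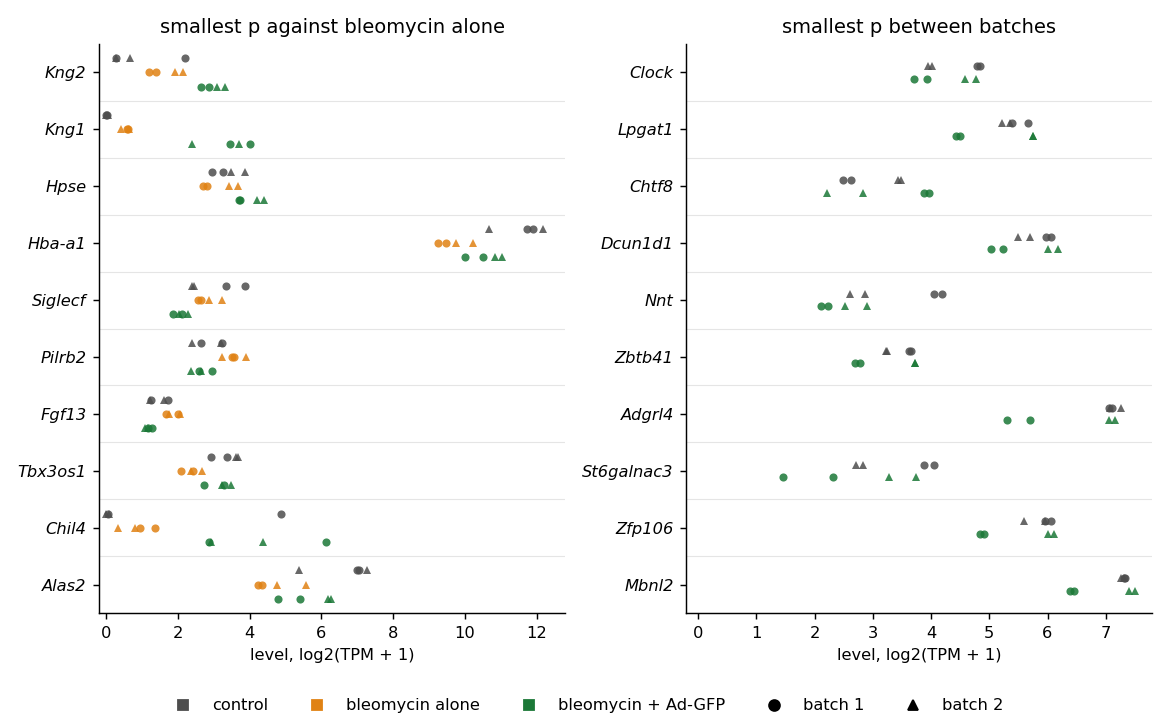
TPM on a log2(TPM + 1) axis of the 10 genes with the smallest p between Ad-GFP and bleomycin alone, in 3 groups, and of the 10 with the smallest p for a difference between batches, with circles for batch 1 and triangles for batch 2. Kng1 lies between 4.23 and 15.1 TPM with Ad-GFP and between 0.33 and 0.54 TPM with bleomycin alone.

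Whether the difference from control was of unequal size in the 2 batches was tested as well. No gene passed (0 of 16055 by limma, smallest adjusted p = 0.164), and 2701 (16.8%) had an unadjusted p under 0.05. Among the 1018 called genes the share was 8.64% (88 genes). A lower share there is in part built in, since a difference between batches adds to the spread by which those genes were called. Clock, a core circadian transcription factor, measured 27.8, 26.7, 15.1 and 14.5 TPM in control and 12.1, 14.2, 23.1 and 26.4 TPM in Ad-GFP lungs, so that it was lower than control in batch 1 (−1.0) and higher in batch 2 (0.70; difference 1.70, SE 0.21, unadjusted p = 7.1e-05). Nnt, a mitochondrial enzyme that makes NADPH, measured 15.7, 17.3, 6.31 and 5.08 TPM in control and 3.71, 3.33, 6.46 and 4.73 TPM in Ad-GFP lungs. Its controls in batch 1 were far above those in batch 2, and the Ad-GFP lungs of both batches were alike (difference 1.92, unadjusted p = 0.00025). Lpgat1 (1.52), Dcun1d1 (1.38), Zbtb41 (1.40), Adgrl4 (1.51), St6galnac3 (2.81), Zfp106 (1.42) and Mbnl2 (1.07) had differences of the same sign, and Chtf8 (−2.31) of the other. These values were not particular to Ad-GFP lungs: Clock measured 15.38, 13.33, 21.95 and 24.97 TPM with bleomycin alone. Across all the genes named here, Ad-GFP minus bleomycin alone lay between −0.14 (St6galnac3) and 0.19 (Nnt). With all 16 libraries in the fit 426 genes passed, 296 of them with a larger value in batch 2.

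Bleomycin alone is set beside these values, with the caution that it was compared with the same 4 controls, so that likeness between the 2 sets of values is in part built in. There 2118 genes were higher (13.2%) and 1170 lower (7.29%) than control. The cell cycle list had 21 of 22 genes higher (median 1.82), the collagen list 15 of 17 (1.56), matrix glycoproteins 18 of 20 (1.89) and lipid-handling macrophages 12 of 15 (1.38). Interferon genes were higher in 16 of 23 cases (0.94) and p53 targets in 12 of 19 (0.84). B cell genes were lower in 8 of 14 cases (−0.74), alveolar fibroblast genes in 12 of 12 (−0.99) and red cell genes in 8 of 8 (−1.91). For single genes the values with bleomycin alone were 5.38 for Mmp12, 4.12 for Retnla, 3.21 for Trem2, 3.82 for Eln and −2.54 for Fabp1, each with an adjusted p under 0.05. Ighg1 had a value of 1.20 (adjusted p = 0.49), and Kng1 one of 0.53 (adjusted p = 0.0353).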

How the data were processed

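RNA was extracted from mouse lung with an RNeasy kit and sequenced from 0.6 µg of total RNA, per the labels' protocols. The submitters' processing notes name STAR, RSEM and the build GRCm39; their versions are not given in the sources used here. The values that the authors deposited were named log2TPM and were used as log2 values of TPM + 1, since each one, raised back, is a multiple of 0.01 TPM within 2.3e-09 TPM and each library then sums to between 999999.12 and 1000000.82. Symbols came from a GENCODE M21 name table for 52093 of 53647 gene identifiers.

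Genes with 1 TPM or more in at least 4 of the 8 libraries were tested, 16055 in all. The comparison with bleomycin alone used the same genes, so its own libraries took no part in the filter. Differences were fitted on log2(TPM + 1), a pseudocount of 1, by limma 3.58.1 with a trended prior variance in R 4.3.3, two-sided, with batch as a term and Benjamini-Hochberg adjustment over all genes tested. The scripts were tested on simulated data. Tables and figures used Python 3.11.15, pandas 2.3.3 and matplotlib 3.10.9. Bleomycin with Ad-GFP was compared with control and with bleomycin alone, and the difference between batches was a contrast of the 4 group-by-batch means. Alternatives changed the pseudocount, filter, scaling, weights, libraries, batch term and replicate block.

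The genes described and the gene lists were chosen with earlier results of these data known, and lists carry no test. Named are Atp12a, the 15 largest rises and falls past the threshold with 1 sign in both batches (passing over predicted models and variable, diversity and joining segments, but not the constant region Ighg1), up to 4 members of each list by smallest p, and the 10 smallest p-values of each of the other 2 tests. Other members named complete a count or say what a list held, and were chosen after their values were seen. A few members that entered list counts and medians are not reported here by name. Promoters were the 250 bases before each RefSeq start in GRCm38.p6.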

Additional observations from a re-analysis of the deposited data

Results flagged for a closer look

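In groups of 4 libraries, a library was marked when its gap to the nearest other value on the log2(TPM + 1) scale exceeded the share of the group's range that Dixon's test allows at 95%. This marked 38 of 485 groups checked over 237 genes, and chance marks about 1 in 20. Control b2r2 was marked 7 times, control b2r1 and control b1r1 6 times each, the Ad-GFP libraries b1r1, b1r2 and b2r2 5 times each, Ad-GFP b2r1 3 times and control b1r2 once.

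Control b2r2 was low for Alas2 (40.48 TPM, the others 126.17 to 153.95 TPM), Ccna2 (2.93 TPM), Col3a1 (55.26 TPM), Loxl2 (7.16 TPM), Mmp9 (4.5 TPM) and S100a9 (99.49 TPM, the others 332.63 to 352.71 TPM), and high for Tnfrsf10b (5.81 TPM). Control b2r1 was low for Scgb1a1 (441.01 TPM) and Jchain (22.41 TPM, the others 167.50 to 201.21 TPM), and high for Ighg1 (25.65 TPM), Cyp4b1 (513.12 TPM), Mdm2 (54.44 TPM) and Wnt2 (15.34 TPM). In that lung IgG1 RNA was therefore the highest of the controls and J chain RNA the lowest. Control b1r1 was high for Xist (117.65 TPM), Car3 (67.09 TPM, the others 14.98 to 15.78 TPM), Cd14 (44.10 TPM) and Tmem173 (31.06 TPM), and low for Fcer2a (11.57 TPM) and Ddx3y (0.01 TPM). Control b1r2 was high for Chil4 (28.10 TPM, the others 0.00 to 0.05 TPM).

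Ad-GFP b1r1 was high for Xist (167.38 TPM) and low for Ddx3y (0 TPM), Scgb1a1 (295.36 TPM), Atp6v0d2 (45.88 TPM) and Postn (186.40 TPM). Ad-GFP b1r2 was low for the B cell genes Bank1 (2.43 TPM) and Ms4a1 (2.86 TPM) and high for Gdf15 (5.93 TPM), Rrm2 (28.43 TPM) and Serpinh1 (394.09 TPM). Ad-GFP b2r1 was high for Kdr (124.04 TPM) and Wnt2 (9.43 TPM) and low for Cd14 (37.18 TPM). Ad-GFP b2r2 was high for the interferon-induced genes Gbp2 (130.28 TPM, the others 48.55 to 51.45 TPM), Irgm1 (115.49 TPM) and Mx1 (22.27 TPM), and low for Cst8 (0.26 TPM) and Slc26a4 (3.81 TPM).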

How the results depend on the processing

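Against control, 1018 genes passed, and 958 of them passed again with a pseudocount of 0.1 (972 in all) and 957 with median-ratio scaling (1112 in all). Counts were 1190 after quantile normalization, 1068 without the batch term and 1245 in batch 1 alone. Of the 1018 genes, 956, 918 and 408 passed again in those fits, in that order. Batch 1 alone thus gave a like total from largely other genes, with 482 higher and 763 lower. In batch 2 alone 97 of the 1018 passed again. The count moved to 589 with a log2 change of at least 1, 200 without the filter, 657 with a mean of at least 5 TPM, 2318 with all 16 libraries, 2617 with array weights (55.2% of them higher), 461 without the libraries low in Scgb1a1, 672 with a term for Xist and 150 in batch 2 alone. With 1 library left out it lay between 211 and 1880, and the share of higher genes was 80.2% without control b2r1, 55.2% without control b2r2 and 56.9% without Ad-GFP b2r1. Of 166 called genes named above, 59 passed whichever library was left out and 20 in every alternative, and none changed sign. Against bleomycin alone 0 genes passed, and 1 did with all 16 libraries (Kng1), 3 with array weights and 1 without the libraries low in Scgb1a1 (Ighg2c, −3.11, adjusted p = 0.009), and 0 to 1 with 1 library left out. For the difference between batches, 8 passed without the filter and 426 with all 16 libraries, and 0 to 2 with 1 library left out (Cep85 and Gm20659 without Ad-GFP b2r1). The cause was not tested.

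A replicate block within batch gave 642 genes against control (401 higher, 241 lower). Deviations of same-numbered libraries correlated at 0.059 and 0.001 between control and Ad-GFP in the 2 batches. Between bleomycin alone and Ad-GFP they correlated at −0.132 and 0.238. With 2 libraries per group and batch, these values cannot tell whether the numbers pair the samples.

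Some values that did not pass changed sign. In batch 2 alone they were 0.11 for Cd22, −0.94 for Chtf8, 0.70 for Clock, 0.13 for Cxadr, 0.24 for Ddx3y, 0.50 for Dcun1d1, 0.23 for Igkc, 0.64 for Jchain, 0.46 for Lpgat1, 0.16 for Mbnl2, 2.16 for Scgb1a1, 0.74 for St6galnac3, 0.49 for Zbtb41 and 0.28 for Zfp106, and in batch 1 alone −0.12 for Cd4, −0.02 for Cd8a and 0.33 for Sftpc. With 1 library left out the values ran from −0.06 to 0.36 for Cd8a, from −0.05 to 0.57 for Chtf8, from −0.36 to 0.06 for Clock, from −0.20 to 0.06 for Cxadr, from −1.09 to 1.11 for Ddx3y (0.98 without the libraries low in Scgb1a1), from −0.95 to 0.36 for Igkc, from −1.5 to 0.28 for Jchain, from −3.92 to 0.47 for Scgb1a1 and from −0.78 to 0.17 for Sftpc. The depth of the libraries is unknown, so no limit from counting can be given.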
